A study of Mus musculus with 116 samples.

Results

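The 53 mitosis and kinetochore genes described here encode proteins that act mainly, though not all only, from the end of G2 to the separation of the daughter cells. The genes cover cyclins with Cdk1 and its activators, the proliferation mark Mki67 and the topoisomerase Top2a, the spindle checkpoint, the anaphase-promoting complex with separase, the kinetochore, the chromosomal passenger complex, spindle motors, cytokinesis and condensin. They were chosen as a list of names, by function, out of 53379 gene identifiers counted, and all 53 were found. Their levels were read in green cells of the mouse neocortex in 55 of 116 bulk RNA-seq libraries, namely the green libraries with at least 1000000 uniquely aligned reads that made up at least 60% of all reads. The other 13 green libraries and the 48 red or yellow ones enter no comparison.

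MADM (mosaic analysis with double markers) makes sparse cells green, red or yellow by recombination between a pair of chromosomes, here with cassettes on chromosome 7 and Cre expressed from Emx1, which is active in progenitors of cortical projection neurons and glia. All paradigms carry the cassettes and Emx1-Cre, and all animals are labelled CD1. In control-MADM the tissue and the green cells are Eed+/+. In Eed-MADM the green cells are Eed-/- and lie sparsely in a heterozygous tissue. In cKO-Eed-MADM the Emx1-Cre lineage is Eed-/- throughout, the green cells included, while cells that do not come from this lineage keep Eed. Eed is a core subunit of PRC2, the complex that methylates lysine 27 of histone H3. The comparison of both mutant paradigms with control-MADM asks what the deletion changes in sparse cells and what it changes when the whole tissue lacks Eed. Each library stands for a pool of 2 to 3 cortices, and the labels name no animals beyond the pools, so that p-values measure the spread between these pools. Embryos were taken at E12.5, E13.5 or E16.5 and pups on the day of birth (P0). From the youngest age on, control-MADM had 5, 2, 3 and 5 libraries, Eed-MADM had 8, 2, 5 and 9, and cKO-Eed-MADM had 4 at each age. Cells of E12.5 were sorted into another buffer than those of the later ages, so that this age and its collection cannot be told apart, and no level of E12.5 was tested against another age.

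Cells that leave G2 condense their chromosomes, attach them to the spindle at the kinetochores and wait in the spindle checkpoint until each chromosome is attached. The anaphase-promoting complex then marks cyclin B and securin for destruction, separase opens the cohesin rings, and the passenger complex moves to the midzone, where the cell divides. In most dividing cells the genes of these proteins are transcribed together late in the cell cycle, under the repressive or activating complexes DREAM and B-Myb-FoxM1, and are nearly silent in neurons that no longer divide. In the embryonic cortex their transcripts come largely from radial glial progenitors, which divide at the ventricle, and from intermediate progenitors.

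The used libraries held 865832 to 7249098 reads on genes, with 2784557 to 6275743 at P0 and 865832 to 2359317 at E12.5. The members held 0.0533% to 0.838% of these reads. Levels are given in CPM (reads on a gene per 1000000 reads on genes), scaled jointly over the 55 libraries. Eed itself was below every control library in every Eed-MADM and cKO-Eed-MADM library at E13.5, E16.5 and P0, where at P0 it lay at 26.4 to 33.95 CPM in control-MADM, 11.3 to 19.6 CPM in Eed-MADM and 9.01 to 16.1 CPM in cKO-Eed-MADM. At E12.5 the 31.4 to 85.9 CPM of Eed-MADM overlapped with the 73.8 to 155 CPM of control-MADM. At that age replicate 9 of Eed-MADM stood apart, with a summed level of the members of 1295 CPM where the other 7 libraries lay at 3983 CPM or above, and summed red blood cell markers of E12.5 libraries ranged from 7.98 to 115214 CPM. No member was called at E12.5 with or without this replicate.

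At P0 the summed level of the 53 genes was lowest in cKO-Eed-MADM. It lay at 1464 to 2095 CPM in the 5 control-MADM libraries, at 944 to 1878 CPM in the 9 Eed-MADM libraries and at 754 to 916 CPM in the 4 cKO-Eed-MADM libraries, so that every cKO-Eed-MADM library was below every library of both other paradigms. At E16.5 the 3 paradigms overlapped, with 967 to 1167, 576 to 980 and 617 to 1127 CPM, and only 1 Eed-MADM library reached the range of control-MADM. At E13.5 control-MADM had 3219 and 4578 CPM, Eed-MADM 3034 and 3938 CPM, and cKO-Eed-MADM 1931 to 3363 CPM. At E12.5 the sums were 4326 to 6437, 1295 to 8239 and 5432 to 6597 CPM. In these bulk samples fewer dividing cells and less RNA per dividing cell cannot be told apart.

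**Figure D1:**
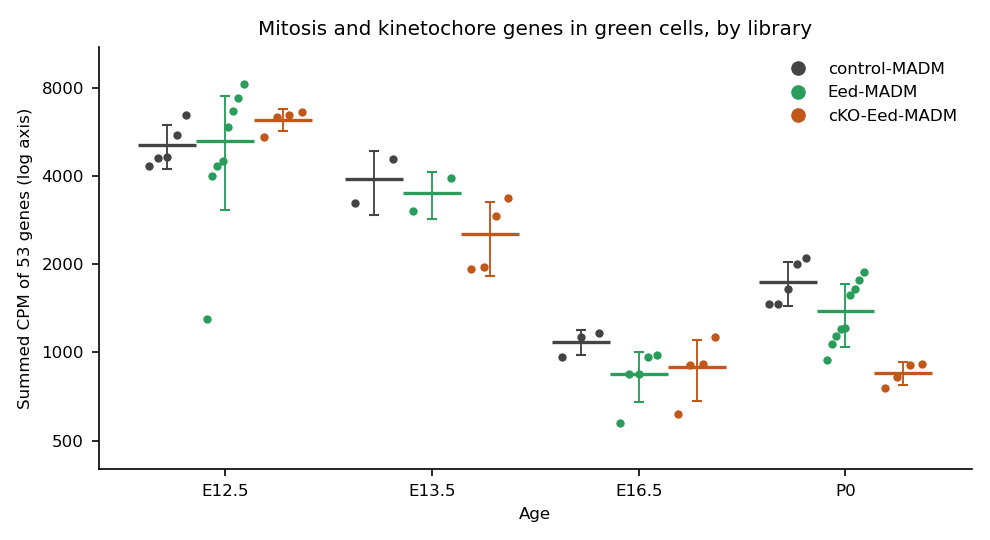
Summed level of the 53 genes in CPM (y axis, log scale) by age (x axis), one point per green library, with a bar for the mean and whiskers for the SD in each paradigm. At P0 the 4 cKO-Eed-MADM libraries lie at 754 to 916 CPM, below all control-MADM and Eed-MADM libraries, while the paradigms overlap at E16.5.

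At P0 the genes of mitosis were lower throughout in cells of cKO-Eed-MADM. With edgeR's quasi-likelihood test and Benjamini-Hochberg adjustment over 14161 genes, 34 of the 53 members fell against control-MADM and 0 rose, where 10.0% of all genes tested fell. The log2 fold change was negative for all 53, from -2.12 to -0.23 with a median of -1.23, while the median over all genes tested was -0.00780. In mean CPM the members stood at 22.8% to 84.5% of their control level, with a median of 42.2%. For 27 members every cKO-Eed-MADM library was below every control-MADM library, which held for 7.37% of all genes tested. Against Eed-MADM, 16 members fell and 0 rose, where 8.26% of all genes fell, 52 of the 53 log2 fold changes were negative, and the median was -0.83. Only Aurkb and Ncapd2, 2 of the 53, were below every Eed-MADM library in every cKO-Eed-MADM library. This is no more than the share of all genes with this pattern, 4.41%. These contrasts share the 4 cKO-Eed-MADM libraries. Between Eed-MADM and control-MADM 0 members were called, where 1.75% of all genes were, 7 had an unadjusted p under 0.05, and DESeq2 called 0. Leaving out replicate 4 of cKO-Eed-MADM lowered the count against control-MADM to 22 and that against Eed-MADM to 9, and leaving out its replicate 2 lowered the latter to 10.

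**Figure D2:**
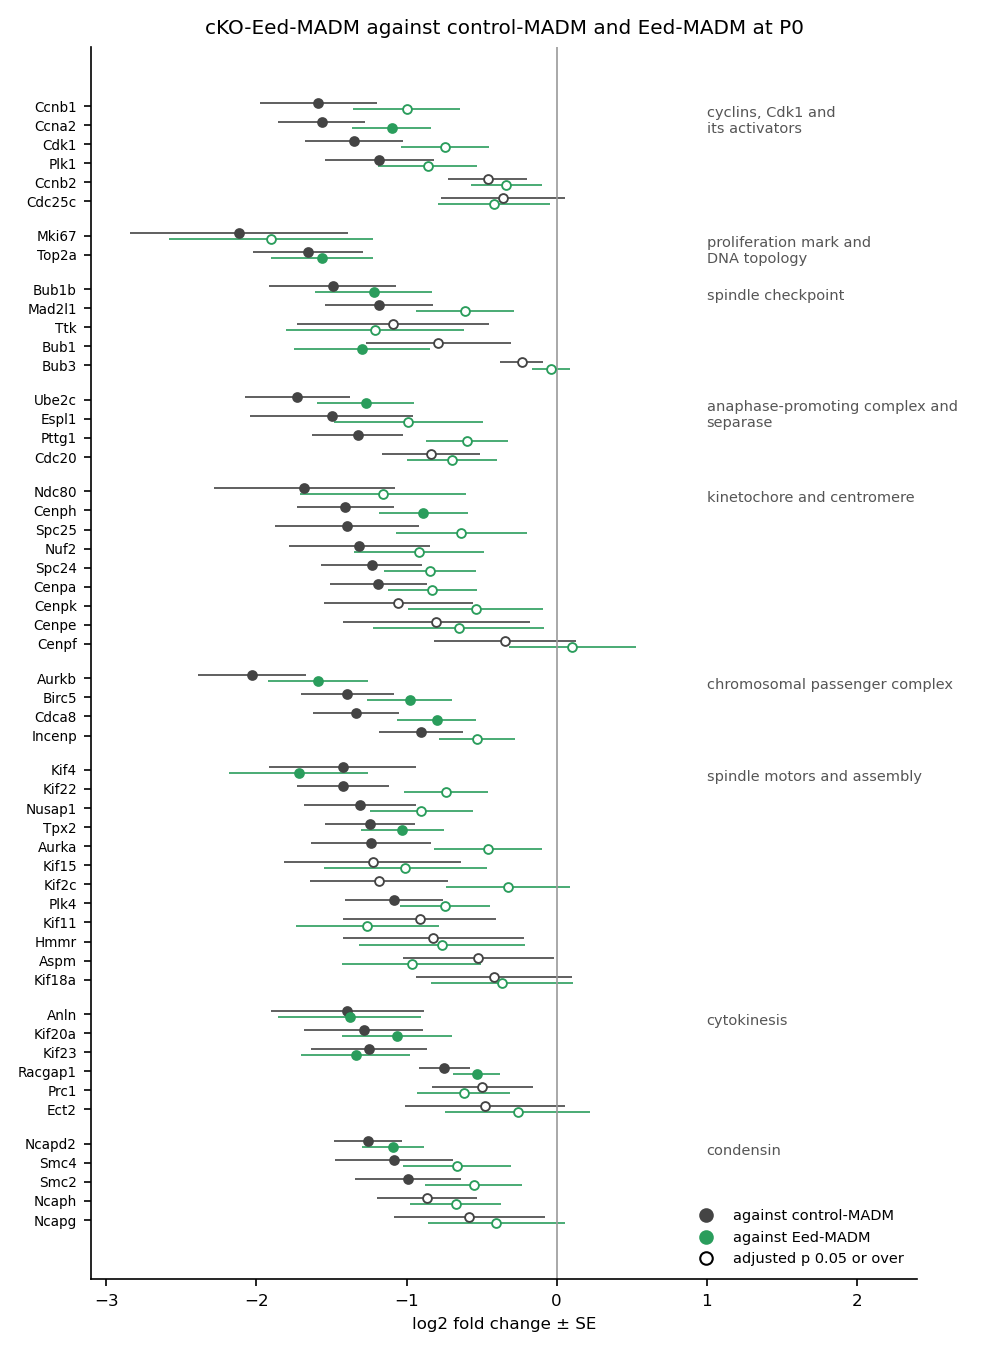
Log2 fold change with its SE (x axis) of each of the 53 genes at P0, ordered by role, for cKO-Eed-MADM against control-MADM (grey) and against Eed-MADM (green), filled where the adjusted p is under 0.05. All 53 grey points lie left of 0 and 34 are filled, and 16 green points are filled.

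Of the cyclins, Cdk1 and its activators, 4 of 6 fell against control-MADM, with a median log2 fold change of -1.27. Cdk1, the kinase that drives entry into mitosis, had 38.5, 47.4, 47.2, 75.3 and 71.3 CPM in control-MADM, a lowest, median and highest level of 15.4, 37.5 and 55.9 CPM in Eed-MADM, and 28.5, 25.9, 17.6 and 15.3 CPM in cKO-Eed-MADM. The cKO-Eed-MADM libraries were all below control-MADM, and 3 of them were within the range of Eed-MADM and 1 just below it. Cdk1 did not pass the test against Eed-MADM (log2 fold change -0.74, adjusted p = 0.0797). Against control-MADM it fell by 1.35 ± 0.33 (SE) on the log2 scale (adjusted p = 0.00357). Ccna2, the cyclin of S phase and G2, was at 60.1, 51.6, 51.3, 73.6 and 82.1 CPM in control-MADM, at 22.3, 41.7 and 72.0 CPM (lowest, median, highest) in Eed-MADM and at 25.3, 14.1, 24.4 and 21.1 CPM in cKO-Eed-MADM. It fell against both (-1.57 ± 0.29, adjusted p = 0.000292, and -1.10, adjusted p = 0.00438), with all 4 cKO-Eed-MADM libraries below control-MADM and below the median of Eed-MADM.

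Ccnb1, the cyclin that activates Cdk1 at mitotic entry, was at 17.5, 16.3, 24.6, 20.9 and 35.0 CPM in control-MADM and at 7.22, 9.01, 10.2 and 3.79 CPM in cKO-Eed-MADM, without overlap. Its fold change against control-MADM was -1.59 ± 0.39 (SE) on the log2 scale (adjusted p = 0.00416), and that against Eed-MADM, with 7.19 to 29.5 CPM, was -0.998 (adjusted p = 0.0509). Plk1, the kinase that promotes centrosome maturation and mitotic entry, lay at 17.1 to 42.3 CPM in control-MADM and at 9.57, 10.1, 17.8 and 12.1 CPM in cKO-Eed-MADM, so that the groups overlapped in a single library. It fell against control-MADM (-1.18 ± 0.36, adjusted p = 0.0187).

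Mki67 and Top2a both fell, with a median log2 fold change of -1.89. Mki67, which coats mitotic chromosomes and is the usual mark of proliferating cells, had 10.3, 12.5, 6.75, 8.44 and 17.9 CPM in control-MADM, 2.31, 5.92 and 21.4 CPM (lowest, median, highest) in Eed-MADM, and 3.61, 2.88, 3.67 and 0 CPM in cKO-Eed-MADM. The 0 stands for no read among 5613471, which allows a level of up to 0.541 CPM (3 reads, counting error only). Its log2 fold change against control-MADM, -2.12 ± 0.73 (SE), was the largest of the members (adjusted p = 0.0355), and against Eed-MADM it was -1.91 (adjusted p = 0.0504). Top2a, which untangles sister chromatids, was at 68.5, 68.6, 61.4, 83.7 and 105 CPM in control-MADM, at 35.6, 69.7 and 113 CPM in Eed-MADM and at 19.3, 9.01, 36.5 and 31.4 CPM in cKO-Eed-MADM. It fell against both paradigms, by 1.66 ± 0.37 (adjusted p = 0.00194) and 1.56 (adjusted p = 0.0022) on the log2 scale, with a single cKO-Eed-MADM library above the lowest of Eed-MADM.

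**Figure D3:**
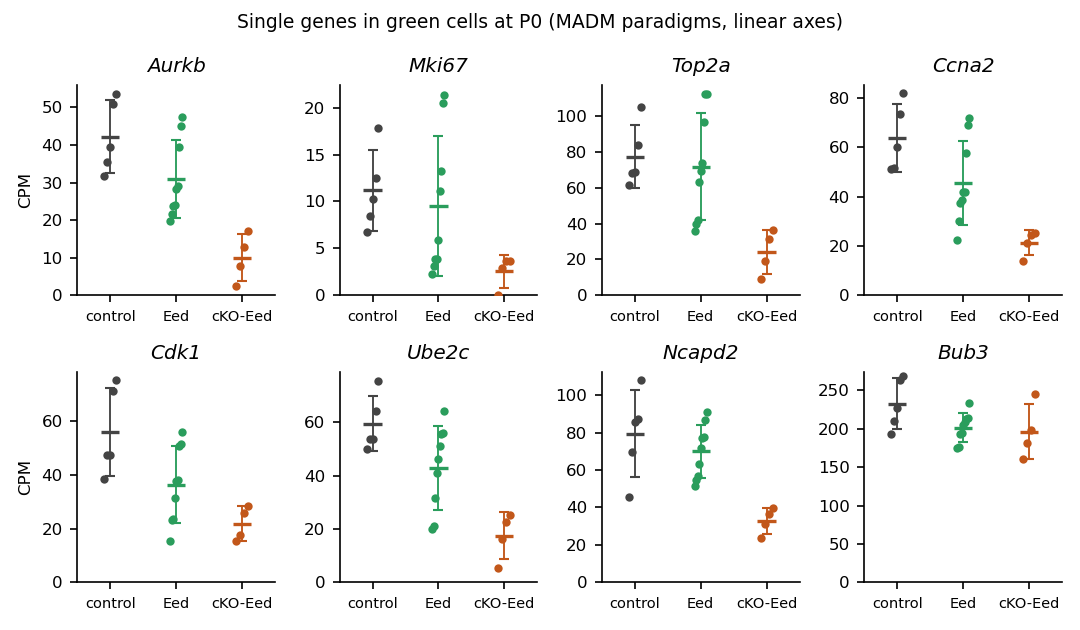
Level in CPM (y axes, linear) of 8 of the genes at P0, one point per library, with the mean as a bar and the SD as whiskers, for the 3 paradigms (x axis). The 4 cKO-Eed-MADM libraries lie below all 5 control-MADM libraries for every gene shown but Bub3.

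In the spindle checkpoint 2 of 5 members fell, with a median of -1.09. Bub1b, which holds back the anaphase-promoting complex, had 17.0, 25.6, 20.9, 9.70 and 25.8 CPM in control-MADM and 7.04, 3.96, 8.90 and 7.57 CPM in cKO-Eed-MADM. The groups did not overlap, and the fold change was -1.49 ± 0.42 (SE) on the log2 scale (adjusted p = 0.0116). Mad2l1 also fell (-1.18, adjusted p = 0.0184). Bub3, which is also used outside mitosis and was chosen after its values were seen, lay at 193 to 269 CPM in control-MADM and at 161 to 245 CPM in cKO-Eed-MADM, with a log2 fold change of -0.23 (adjusted p = 0.245), the smallest of the members.

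The anaphase-promoting complex and its targets had 3 of 4 members lower, with a median of -1.41. Ube2c, the ubiquitin-conjugating enzyme of the complex, was at 53.7, 50.2, 53.8, 64.3 and 75.5 CPM in control-MADM, at 20.2, 46.2 and 64.2 CPM (lowest, median, highest) in Eed-MADM and at 25.3, 5.41, 22.8 and 16.4 CPM in cKO-Eed-MADM. It fell against both (-1.73 ± 0.35, adjusted p = 0.000763, and -1.27, adjusted p = 0.00623). Pttg1 (securin) and Espl1 (separase), chosen here after their values were seen, fell against control-MADM, with log2 fold changes of -1.32 and -1.498. Cdc20, the activator of the complex, did not pass the test, with 33.8 to 76.7 CPM in control-MADM and 37.2, 14.1, 24.2 and 32.5 CPM in cKO-Eed-MADM (log2 fold change -0.84, adjusted p = 0.066).

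At the kinetochore 6 of 9 members fell, with a median of -1.23. Cenpa, the histone H3 variant of centromeres, had 67.0, 68.1, 70.4, 128 and 82.8 CPM in control-MADM and 45.0, 31.7, 40.8 and 27.2 CPM in cKO-Eed-MADM (-1.19 ± 0.32, adjusted p = 0.00922). There was no overlap. Ndc80, which binds microtubules at the outer kinetochore, fell from 6.90, 10.4, 12.99, 11.2 and 4.21 CPM to 1.62, 1.44, 3.87 and 4.15 CPM, also without overlap (-1.68 ± 0.60, adjusted p = 0.0442), and its partners in the same complex, Nuf2, Spc24 and Spc25, fell by 1.31, 1.23 and 1.40 on the log2 scale. Neither Cenpa nor Ndc80 passed the test against Eed-MADM (adjusted p = 0.0509 and 0.15). The long kinetochore genes Cenpe and Cenpf did not pass the test against either paradigm.

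All 4 members of the chromosomal passenger complex fell against control-MADM, with a median of -1.37, and 3 of 4 fell against Eed-MADM. Aurkb, its kinase, which corrects wrong attachments of the spindle, lies on chromosome 11 from 69045647 to 69051664 (GRCm38). It was at 31.6, 35.6, 39.5, 53.6 and 51.1 CPM in control-MADM (42.3 ± 9.63, mean ± SD, n = 5), at 19.8, 28.2 and 47.4 CPM in Eed-MADM (lowest, median, highest) and at 7.76, 2.52, 17.0 and 12.8 CPM in cKO-Eed-MADM (10.0 ± 6.27, n = 4). All cKO-Eed-MADM libraries were below all others, and Aurkb had the lowest adjusted p of the members against control-MADM (-2.03 ± 0.36, adjusted p = 0.000183, and -1.59 ± 0.33, adjusted p = 0.0013, against Eed-MADM). Cdca8 (borealin), which targets the complex to chromatin, had 49.8 to 97.4 CPM in control-MADM and 27.8, 19.5, 29.0 and 23.8 CPM in cKO-Eed-MADM, a fall by 1.34 ± 0.29 on the log2 scale (adjusted p = 0.00129), and it fell by 0.80 against Eed-MADM (adjusted p = 0.0315). Birc5 (survivin) and the scaffold Incenp fell by 1.39 and 0.90.

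Among spindle motors and assembly factors 6 of 12 fell, with a median of -1.21. Tpx2, which activates Aurora A on spindle microtubules, was at 32.6, 45.7, 39.0, 49.8 and 38.6 CPM in control-MADM and at 17.9, 9.73, 23.0 and 17.7 CPM in cKO-Eed-MADM. It fell without overlap (-1.24 ± 0.30, adjusted p = 0.00377), and fell against Eed-MADM as well (-1.03, adjusted p = 0.00995). Kif4, a chromatin-bound motor, had the largest log2 fold change of the members that fell against Eed-MADM (-1.72 ± 0.46, adjusted p = 0.00965), with 4.12 to 20.5 CPM there and 4.87, 0.721, 4.64 and 1.98 CPM in cKO-Eed-MADM. The motor that pushes spindle poles apart, Kif11, with 10.5 to 14.2 CPM in control-MADM and 8.48, 2.88, 8.51 and 5.05 CPM in cKO-Eed-MADM, did not pass the test (-0.91, adjusted p = 0.206) although the groups did not overlap. Aspm, a spindle pole protein, did not pass either (-0.52, adjusted p = 0.49): 3 of the 4 cKO-Eed-MADM libraries had 10.2 to 10.5 CPM, like the 9.26 to 16.4 CPM of control-MADM, and replicate 2 had 0.360 CPM.

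Of 6 cytokinesis genes 4 fell, with log2 fold changes of the 6 from -1.39 to -0.48, and these 4 were also lower than in Eed-MADM. Kif23, a motor of the central spindle, lay at 11.4 to 21.1 CPM in control-MADM, 8.42 to 32.5 CPM in Eed-MADM and 9.75, 4.33, 7.16 and 4.87 CPM in cKO-Eed-MADM. It fell by 1.25 on the log2 scale against control-MADM (adjusted p = 0.0202) and by 1.34 against Eed-MADM (adjusted p = 0.00975). Anln (anillin), a scaffold of the contractile ring, fell by 1.39 and 1.38, and the groups overlapped, since 1 cKO-Eed-MADM library had 6.38 CPM and the control libraries 3.40 to 12.1 CPM. Prc1, which bundles microtubules of the midzone, had 13.9 to 24.6 CPM in control-MADM and 16.2, 5.41, 18.4 and 10.3 CPM in cKO-Eed-MADM and did not pass the test (-0.49, adjusted p = 0.306).

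In condensin 3 of 5 members fell, with a median of -0.99. Ncapd2, a regulatory subunit of condensin I on chromosome 6 (125168007 to 125191701, GRCm38), had 108, 45.6, 87.4, 85.4 and 69.8 CPM in control-MADM (79.3 ± 23.3, mean ± SD, n = 5), 51.5, 72.0 and 90.9 CPM in Eed-MADM (lowest, median, highest) and 36.6, 23.8, 30.9 and 39.9 CPM in cKO-Eed-MADM (32.8 ± 7.05, n = 4). Its cKO-Eed-MADM libraries were below all others, and it fell by 1.26 ± 0.23 (adjusted p = 0.000206) and 1.09 ± 0.21 (adjusted p = 0.000526) on the log2 scale, the latter with the lowest adjusted p of the members against Eed-MADM. Smc2, the ATPase core of both condensins, was at 23.9 to 56.3 CPM in control-MADM and at 20.4, 14.8, 18.0 and 14.1 CPM in cKO-Eed-MADM (-0.99 ± 0.36, adjusted p = 0.0437). Of the 16 members that fell against Eed-MADM, 15 also fell against control-MADM, and the other one was the checkpoint kinase Bub1 (-1.30, adjusted p = 0.0458), named after its values were seen, at 3.80 to 10.6 CPM in control-MADM, 1.76 to 13.8 CPM in Eed-MADM and 2.17 to 4.33 CPM in cKO-Eed-MADM.

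Per length of their exons, the members with the highest mean level in control-MADM at P0 were Bub3 (33.2 CPM per kb), Pttg1 (27.6), Cdc20 (26.2), Ccnb2 (24.1) and Ube2c (22.9), and the lowest were Kif18a (0.491), Cenpe (0.519) and Cenpf (0.830). Longer genes had fewer calls: of the 27 members with up to 5210 exonic bases 20 fell at P0 against control-MADM, with a median SE of 0.349, and of the 26 longer ones 14, with a median SE of 0.493. Reads where genes overlap were left out of the counts, and for Kif20a, Kif4, Cenpk and Prc1 counting by strand gave 2.64, 1.82, 1.65 and 1.63 times as many reads, which makes the levels of these 4 genes uncertain. Ccnb1, Ccnb2, Kif22 and Kif4 have named pseudogenes. Reads that align to both a gene and its copy were left out, and the effect on these levels was not tested.

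Cell type markers differed in the same libraries at P0. Summed glial lineage markers were at 1552 to 4486 CPM in control-MADM, 1505 to 4985 CPM in Eed-MADM and 4753 to 10948 CPM in cKO-Eed-MADM, with 6 of 12 genes higher than in control-MADM. Radial glia markers, at 4084 to 9649, 3078 to 7362 and 4813 to 10508 CPM, overlapped between the paradigms, with 5 of 14 genes higher. Intermediate progenitor markers summed to 768 to 1289, 731 to 1231 and 865 to 1408 CPM, with 2 of 9 tested genes higher and 6 lower than in control-MADM. These sums thus hold opposite changes. Of this list, Insm1, Sstr2 and Btg2 had the lowest adjusted p. Their means were 112, 172 and 157 CPM in control-MADM and 21.5, 52.4 and 603 CPM in cKO-Eed-MADM. Projection neuron markers lay at 5641 to 11389, 6585 to 11611 and 2804 to 7295 CPM, with 6 of 14 lower and 1 higher. Interneuron markers summed to 536 to 1242 CPM in control-MADM, 571 to 901 CPM in Eed-MADM and 305 to 409 CPM in cKO-Eed-MADM (6 of 11 tested lower, 1 higher). Microglia markers were at 7.58 to 60.7, 1.28 to 167 and 180 to 422 CPM (7 of 8 tested higher) and meningeal markers at 8.59 to 18.3, 7.89 to 33.1 and 122 to 285 CPM (6 of 6 tested higher), and none of either list was at 0 in every cKO-Eed-MADM library. Endothelial and pericyte markers, at 20.1 to 65.0, 9.23 to 65.5 and 20.5 to 122 CPM, had 0 of 3 tested genes called. Replicate 4 of cKO-Eed-MADM had the highest glial, radial glia and microglia sums and the lowest neuron sum. The part of this shift in cell markers in the lower levels of the mitosis genes was not tested.

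**Figure D4:**
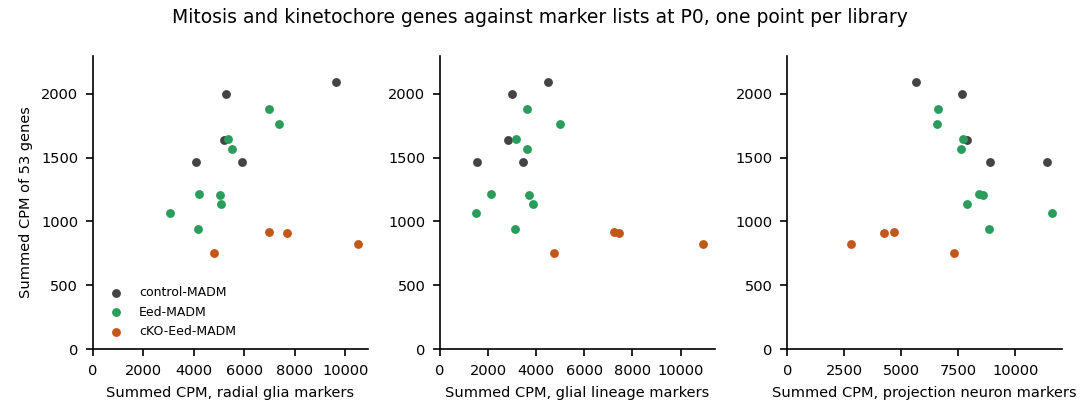
Summed level of the 53 genes (y axis, CPM) against the summed level of radial glia, glial lineage and projection neuron markers (x axes, CPM) at P0, one point per library. The cKO-Eed-MADM libraries lie lowest on the y axis in each panel, and their radial glia sums, at 4813 to 10508 CPM, overlap with those of control-MADM.

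The promoters of the members shared letters that the choice of genes did not use. In windows of 300 bases (250 before and 50 from each gene's start on, RefSeq, GRCm38.p6), 45 of the 53 members had an entry, 50 windows in all. The CHR letters TTTGAA or TTCGAA (either strand) were in 36 of the 50 windows (72%) and in 19.2% of 32851 windows of all genes. CCAAT (either strand) was in 76% of the members' windows and in 37.4% of all, and both together in 64% and 7.53%. The E2F letters TTTGGCGC or TTTCGCGC were in 4 windows of the members (8%) and in 0.813% of all. CHR and CCAAT are the letters known from promoters of late cell cycle genes, and a match here is a description of the letters, not a site in use. The 150 bases before the start, shorter than the windows counted above, are shown for 4 members that fell at P0, chosen because they hold both sets of letters. They are also shown for Birc5, which fell and holds neither in this stretch. Pttg1, Cenph, Nusap1, Plk4, Mad2l1, Ndc80, Nuf2 and Anln are among the further members that fell and hold neither there. CHR and CCAAT letters of either strand are in capitals.
Top2a (chr11:99024190-99024339, minus strand): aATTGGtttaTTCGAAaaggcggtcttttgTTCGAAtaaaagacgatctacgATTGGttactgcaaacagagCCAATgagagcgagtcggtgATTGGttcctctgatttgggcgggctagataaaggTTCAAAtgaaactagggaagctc
Cdk1 (chr10:69352913-69353062, minus strand): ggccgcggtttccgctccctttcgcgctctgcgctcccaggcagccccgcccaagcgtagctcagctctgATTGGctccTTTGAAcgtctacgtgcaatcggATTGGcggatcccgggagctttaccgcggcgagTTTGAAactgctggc
Ube2c (chr2:164769779-164769928, plus strand): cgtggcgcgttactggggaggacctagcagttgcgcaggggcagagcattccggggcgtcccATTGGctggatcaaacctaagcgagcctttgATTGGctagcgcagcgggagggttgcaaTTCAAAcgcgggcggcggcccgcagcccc
Kif22 (chr7:127042421-127042570, minus strand): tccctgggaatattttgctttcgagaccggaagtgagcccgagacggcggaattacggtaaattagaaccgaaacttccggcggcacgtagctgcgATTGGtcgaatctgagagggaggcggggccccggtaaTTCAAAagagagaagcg
Birc5 (chr11:117849087-117849236, plus strand): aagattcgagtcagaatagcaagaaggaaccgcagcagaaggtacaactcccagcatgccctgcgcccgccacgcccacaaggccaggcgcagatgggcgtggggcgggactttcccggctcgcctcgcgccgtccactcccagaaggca
Top2a held 3 CHR and 4 CCAAT matches, Cdk1 held 2 and 2, Ube2c 1 and 2, and Kif22 1 and 1. At P0 Birc5 and Kif22 fell by a similar size against control-MADM (-1.39 and -1.42), and a relation of the letters to the fall of the members was not tested.

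Before birth the mitosis genes of control-MADM fell steeply with age and were partly higher again at P0. In a fit of the 9 groups of E13.5, E16.5 and P0, 32 of the 53 members were lower at E16.5 than at E13.5 and 0 higher, where 7.32% of all genes were lower, with all 53 log2 fold changes negative and a median of -2.04. Cdk1 went from 148 and 109 CPM to 11.8, 25.0 and 22.7 CPM (-2.74 ± 0.42, adjusted p = 1.87e-05). Ube2c had the largest change, from 302 and 160 CPM to 21.7, 24.5 and 28.9 CPM (-3.24, adjusted p = 8.91e-05). The kinetochore gene Spc24 fell from 140 and 90.0 CPM to 12.3, 26.4 and 19.9 CPM (-2.60, adjusted p = 0.000111). For these genes the ages did not overlap. The next largest log2 fold changes were those of Kif20a (-3.13), Plk1 (-2.96), Espl1 (-2.96) and Kif2c (-2.84), a kinesin that takes microtubules apart, and Kif22 (-2.44) and Ncapd2 (-2.12) followed the first 3 genes by adjusted p (0.000147 and 0.000205). Every role had members that fell: 6 of 6 cyclins and Cdk1 activators, both Mki67 and Top2a, 2 of 5 checkpoint, 3 of 4 anaphase-promoting complex and separase, 4 of 9 kinetochore, 4 of 4 passenger complex, 5 of 12 spindle, 3 of 6 cytokinesis and 3 of 5 condensin genes. Without replicate 1 of control-MADM at E13.5, which leaves a single library assumed to vary like the other groups, 15 members fell.

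From E16.5 to P0 8 members rose in control-MADM and 0 fell, where 8.31% of all genes rose, and 51 of the 53 log2 fold changes were positive, with a median of 0.91. The 8 were Cdk1 (1.51 on the log2 scale), Cenph (1.53), Top2a (1.26), Aurkb (1.61), Kif2c (1.73), Kif22 (1.21), Smc2 (1.55) and Smc4 (1.79), which act in mitotic entry, at the kinetochore, on chromosome structure and at the spindle. Top2a rose from 37.8, 29.5 and 29.8 CPM to 61.4 to 105 CPM without overlap (adjusted p = 0.0208). Aurkb rose from 25.4, 11.1 and 4.63 CPM to 31.6 to 53.6 CPM, also without overlap (adjusted p = 0.022). Cdc20 was at 44.5, 45.3 and 56.7 CPM at E16.5 and 33.8 to 76.7 CPM at P0. Cell type markers of control-MADM also differed between these ages. Summed glial lineage markers were at 73.7 to 109 CPM at E16.5 and at 1552 to 4486 CPM at P0 (10 of 12 genes higher), radial glia markers at 1358 to 1549 and 4084 to 9649 CPM (10 of 14 higher), and interneuron markers at 112 to 227 and 536 to 1242 CPM (8 of 11 tested higher, 1 lower). Projection neuron markers were at 11900 to 13519 and 5641 to 11389 CPM (8 of 14 lower), and the part of these shifts in the rise of the members was not tested. The count of members that rose was 2 without replicate 1 or without replicate 3 of E16.5, 5 without replicate 5 of P0, and 0 with the shallower green libraries included.

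**Figure D5:**
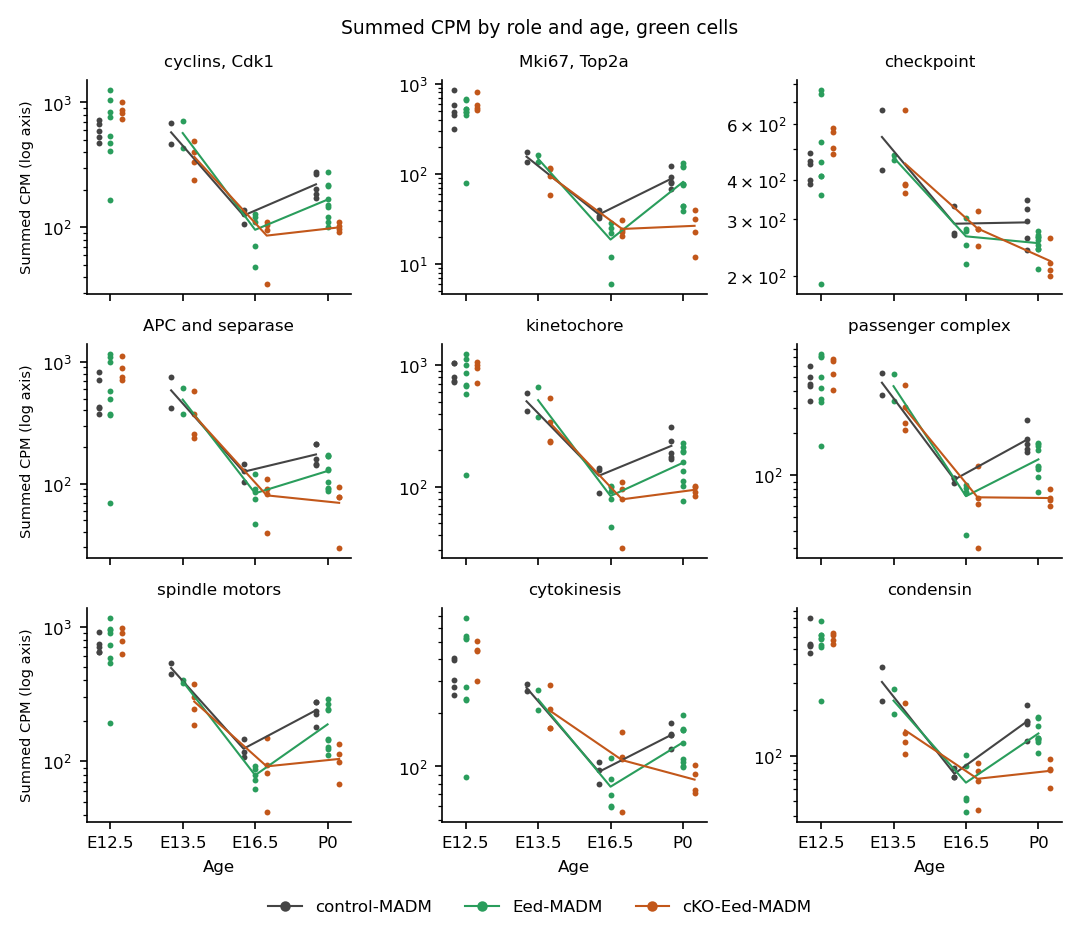
Summed level in CPM (y axes, log scale) of each of the 9 roles by age (x axes), one point per library, with lines through the paradigm means from E13.5 to P0. In control-MADM the sums fall from E13.5 to E16.5, and at P0 all cKO-Eed-MADM points lie below all control-MADM points in every panel but the checkpoint.

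Before birth no member was called between paradigms. At E12.5 0 members were called in any of the 3 comparisons, where 0% of all genes were, with 1, 0 and 1 members at an unadjusted p under 0.05 for cKO-Eed-MADM against control-MADM, Eed-MADM against control-MADM and cKO-Eed-MADM against Eed-MADM, and DESeq2 called 0 in each. The lowest p belonged to Cdk1 in cKO-Eed-MADM, at 238, 546, 215 and 147 CPM against 116 to 190 CPM in control-MADM (log2 fold change 1.05, adjusted p = 0.517, and 0.89 against Eed-MADM, adjusted p = 0.452). The groups overlapped. The members with the next lowest p against control-MADM were Bub3 (0.44) and Ube2c (0.99), those against Eed-MADM were the checkpoint kinase Ttk (0.57) and Cenpf (0.69), and in Eed-MADM against control-MADM they were Aurkb (0.30), the cytokinesis motor Kif20a (0.56, but -0.10 with the replicate block) and the condensin subunit Ncapg (0.43), all with an adjusted p over 0.4.

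At E13.5 0 members were called for cKO-Eed-MADM against control-MADM, where 0.0372% of all genes were, although 51 of 53 log2 fold changes were negative, with a median of -0.71, and 13 had an unadjusted p under 0.05. DESeq2 called 3, all lower. In 15 members all 4 cKO-Eed-MADM libraries were below both control-MADM libraries, which held for 9.22% of all genes. Espl1 (separase), with the lowest p, had 56.2 and 21.6 CPM in control-MADM, 7.78 and 16.4 CPM in Eed-MADM and 6.47, 3.54, 6.46 and 10.2 CPM in cKO-Eed-MADM (-2.56 ± 0.55, adjusted p = 0.0815). Incenp had 127 and 72.8 CPM in control-MADM, 85.4 and 79.5 CPM in Eed-MADM and 53.1, 33.3, 43.2 and 35.2 CPM in cKO-Eed-MADM (-1.30, adjusted p = 0.132). Neither overlapped with control-MADM, nor did Kif22 (-1.43, adjusted p = 0.186). Eed-MADM against control-MADM also called 0 members (0% of all genes, 2 with an unadjusted p under 0.05, 0 by DESeq2), with the lowest p for Espl1 (-1.69), Aspm (-1.36) and Bub1b (-0.86), and a median of -0.16. The comparison of cKO-Eed-MADM with Eed-MADM called 0 (0.0223% of all genes, 7 with an unadjusted p under 0.05, 0 by DESeq2), with a median of -0.56 and the lowest p for Cenph (-1.36), Incenp (-1.002) and Spc24 (-1.01, but 0.15 with all green libraries). Without replicate 3 of control-MADM, which leaves a single control library assumed to vary like the other groups, 6 members fell in cKO-Eed-MADM against control-MADM. Summed projection neuron markers were at 7093 to 7297 CPM in control-MADM and 9637 to 10324 CPM in cKO-Eed-MADM at this age, and their part in the members' levels was not tested.

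At E16.5, where 8.58% of all genes changed between cKO-Eed-MADM and control-MADM, 0 of the 52 members tested did, with 40 negative log2 fold changes, a median of -0.40 and 4 at an unadjusted p under 0.05. In 7 of the 53 members every cKO-Eed-MADM library was below every control-MADM library (8.81% of all genes), and in 12 every Eed-MADM library was (3.74% of all genes). DESeq2 called 2, both lower. Cdc20 had 44.5, 45.3 and 56.7 CPM in control-MADM, 22.5 to 28.2 CPM in Eed-MADM and 5.83, 27.7, 28.9 and 24.8 CPM in cKO-Eed-MADM. Both mutant paradigms were below every control library, with log2 fold changes of -1.15 (adjusted p = 0.0559) and -0.96 (adjusted p = 0.288, Eed-MADM). Aurka, the kinase of spindle poles, had 22.2, 24.8 and 18.5 CPM in control-MADM and 1.88, 8.89, 11.1 and 9.08 CPM in cKO-Eed-MADM (-1.49, adjusted p = 0.0609), and Pttg1 had a log2 fold change of -0.85 (adjusted p = 0.217). Eed-MADM against control-MADM called 0 members (0.255% of all genes, 7 with an unadjusted p under 0.05, 0 by DESeq2), with a median of -0.58 and the lowest p for Kif22 (-1.24), Top2a (-1.08) and Cdc20. Between cKO-Eed-MADM and Eed-MADM 0 were called (7.04% of all genes, 4 with an unadjusted p under 0.05, 0 by DESeq2), the median was 0.08, and Kif22 (0.97), Ndc80 (2.38) and Espl1 (1.88) had the lowest p. At P0 the lowest p of Eed-MADM against control-MADM belonged to Pttg1 (-0.73, adjusted p = 0.115), Kif22 (-0.68, adjusted p = 0.142) and Aurka (-0.78, adjusted p = 0.198), and the median was -0.32.

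The change of the deletion's effect between ages was tested as an interaction. From E16.5 to P0 the difference between cKO-Eed-MADM and control-MADM changed by a median of -0.72 on the log2 scale, with 45 of 53 values negative, but 0 members passed the test, where 1.17% of all genes did. In 11 members the unadjusted p was under 0.05, DESeq2 called 0, and the lowest p belonged to Cenph (-1.83, adjusted p = 0.0975), Racgap1, which acts at the midzone in cytokinesis (-1.06, adjusted p = 0.108), and Ube2c (-1.90, adjusted p = 0.151). From E13.5 to E16.5 0 members passed (4.30% of all genes, 3 with an unadjusted p under 0.05, 0 by DESeq2), with a median of 0.15 and the lowest p for Espl1 (2.39, adjusted p = 0.135), Ncapd2 (1.06) and Kif22 (1.15). The 34 calls at P0 and 0 at E16.5 are therefore not shown to differ for any single gene.

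Genes that act beside the members were read in the same contrasts. At P0, where 10.0% of all genes fell in cKO-Eed-MADM against control-MADM, 23 of 75 tested genes of a further mitosis list fell and 1 rose, among them Fbxo5, an inhibitor of the anaphase-promoting complex (-1.83), Mis18a, which helps to load Cenpa (-1.52), and the kinase Melk (-2.73). Of 18 tested regulators of the late cell cycle genes 4 fell, among them Rbbp4 (-0.51), a subunit of DREAM and also of PRC2, Nfyb (-0.86), a subunit of the factor that binds CCAAT, and the repressor E2f7 (-1.77). Of 26 DNA replication genes 11 fell, among them the helicase subunits Mcm7 (-0.75) and Mcm2 (-0.95) and the clamp loader subunit Rfc4 (-1.03). Against Eed-MADM 14, 3 and 3 genes of these lists fell, where 8.26% of all genes did, and 1 gene of the further mitosis list rose. The 3 of 26 replication genes are close to that share. In control-MADM 32 of 76 further mitosis genes, 6 of 18 regulators and 19 of 26 replication genes fell from E13.5 to E16.5, where 7.32% of all genes did. At E16.5 3 of 68 further mitosis genes fell in cKO-Eed-MADM against control-MADM, close to the 2.42% of all genes that fell, namely Hjurp, the chaperone of Cenpa (-1.29), Lmnb1 (-0.64) and Ska2 (-0.71).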

How the data were processed

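The authors deposited, per library, whole-number counts of reads per gene from STAR (mm10, reads that align to several places left out), as the paper's methods describe. They are not normalized, and the sources used here do not name the annotation release. The unstranded column was used. Rows that name no gene stayed out of library sizes. Unmapped reads were 18.7% to 40.0% of all reads. Reads in no gene or in several were 13.4% to 40.1% of the uniquely aligned reads. Symbols and positions came from GENCODE M21 (GRCm38). Counts were scaled with TMM and tested in R 4.3.3 by edgeR 4.0.16 (quasi-likelihood, robust, in its older form), with the 3 paradigms of an age fitted together. Genes needed a mean count above 1 at E12.5 and above 10 at later ages, and were called at a Benjamini-Hochberg adjusted p under 0.05. Changes between ages came from 1 fit of 9 groups. The steps were tested on simulated counts with 200 changed genes. DESeq2 1.42.0, other filters and scalings, all green libraries, counts by strand, fits of the compared groups alone, a replicate block and leaving out single libraries were the alternatives. Eed-MADM libraries of P0 were not left out, nor were those of E12.5 except replicate 9.

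The members and all gene lists were chosen with earlier results of these data known. Named members are 15 fixed ones (at least 1 per role), in each contrast with calls the 5 with the lowest adjusted p and the 5 with the largest change, any called against the majority, and the 3 with the lowest p where none was called. Bub1, Bub3, Pttg1, Espl1, Mad2l1, Nuf2, Spc24, Spc25, Birc5, Incenp, Kif22, Cenpe and Cenpf at P0 were named outside this rule, after their values were seen. So were Cenph, Nusap1 and Plk4 at P0. Other genes are the up to 3 called genes of a list with the lowest adjusted p.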

Additional observations from a re-analysis of the deposited data

Results flagged for a closer look

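In 14 of 144 groups of 4 to 10 libraries tested, over 16 measures, the highest or lowest library stood far from the others by Dixon's criterion, where chance gives about 1 in 20. The causes were not tested. At E12.5 replicate 5 of cKO-Eed-MADM was highest for Ccnb1 (86.7 CPM, the others 60.5 to 62.9) and Plk1 (164 CPM, the others 74.4 to 86.0), replicate 5 of control-MADM for Cenpa (461 CPM, the others 189 to 267) and replicate 4 of control-MADM for Smc2 (251 CPM, the others 135 to 168). At E16.5 replicate 4 of cKO-Eed-MADM was highest for Plk1 (16.3 CPM, the others 3.49 to 5.35), Prc1 (30.7 CPM, the others 4.17 to 8.54) and Aspm (13.6 CPM, the others 0 to 1.98). Among the Eed-MADM libraries of that age replicate 1 was highest for Mki67 (10.2 CPM, the others at most 2.37) and replicate 4 lowest for Cdk1 (7.96 CPM, the others 20.6 to 24.0). At P0 replicate 5 of control-MADM was highest for Cenpa (128 CPM, the others 67.0 to 82.8) and Smc2 (56.3 CPM, the others 23.9 to 32.5), replicate 6 of control-MADM for Aspm (16.4 CPM, the others 9.26 to 11.1) and replicate 5 of Eed-MADM for Ccnb1 (29.5 CPM, the others 7.19 to 18.5), while replicate 2 of cKO-Eed-MADM was lowest for Aspm (0.360 CPM, the others 10.2 to 10.5).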

How the results depend on the processing

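The 34 members called at P0 against control-MADM were 29 to 35 and the 16 against Eed-MADM 14 to 21 under the other alternatives, all lower, and 22 to 34 and 9 to 15 when 1 library was left out. The range of 9 to 15 comes from leaving out cKO-Eed-MADM libraries only, as no Eed-MADM library of P0 was left out. The 32 members lower at E16.5 than at E13.5 in control-MADM were 30 to 46, 18 with all green libraries, and 15 to 31 with 1 library left out. The 8 higher at P0 than at E16.5 were 15 with DESeq2, 13 with edgeR's newer quasi-likelihood form, 15 without a filter, 0 with all green libraries, and 2 to 11 with 1 library left out. Where no member was called, the alternatives gave the following counts, and the cause was not tested. At E12.5 cKO-Eed-MADM against either paradigm had 1 higher without a filter. At E13.5 cKO-Eed-MADM against control-MADM had 3 lower with DESeq2, 1 with the newer form, 5 without a filter and 0 to 6 with 1 library left out, and Eed-MADM against control-MADM had 2 with all green libraries. At E16.5 cKO-Eed-MADM against control-MADM had 2 lower with DESeq2, 2 with the newer form, 3 without a filter, 1 with the replicate block and 0 to 1 with 1 library left out, and against Eed-MADM 2 higher with the newer form and 0 to 2 with 1 library left out. The change of the effect from E13.5 to E16.5 had 0 to 2 with 1 library left out, and that from E16.5 to P0 had 2 without a filter. Fold changes that had not passed the test reversed for Kif20a (Eed-MADM against control-MADM, E12.5, 0.56 to -0.10 with the replicate block), Spc24 (cKO-Eed-MADM against Eed-MADM, E13.5, -1.01 to 0.15 with all green libraries) and Cdc20 (P0 against E16.5 in control-MADM, 0.01 with all used libraries, -0.005 with all green libraries, and -0.21 to 0.12 with 1 library left out). Of the fold changes of named genes, 717 kept direction and side of the threshold with 1 library left out, 58 lost the call, 13 gained it and 3 reversed, and under the other settings 883 kept both, 18 lost the call, 39 gained it and 3 reversed.

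Replicate numbers are shared between paradigms but did not pair the samples throughout: in 0 of 9 comparisons with at least 3 pairs was every pair's correlation over 0.1, and 10 of 36 pairs were. In Eed-MADM against control-MADM 3 of 4 pairs at E12.5 and 3 of 5 at P0 were over 0.1, the highest at 0.478, so that this rule cannot decide on pairing of some libraries. With the replicate block 29 and 17 members fell at P0 in cKO-Eed-MADM against control-MADM and Eed-MADM. The fit without replicate 9 of Eed-MADM at E12.5 was chosen after seeing the data and called 0 members. Leaving out 1 of the 2 control-MADM libraries of E13.5 leaves a single library, assumed to vary like the other groups. Longer members had larger SEs and fewer calls, and the cause was not tested.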

Other observations

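Red and yellow cells were sorted from the same tissues and enter none of the comparisons above. On a scale set over all colors, the summed level of the 53 genes at P0 was 956 CPM in the single yellow and 832 and 1149 CPM in the 2 red libraries of cKO-Eed-MADM, where all colors are Eed-/-. In control-MADM it was 934 and 1211 CPM in yellow and 1322 and 1464 CPM in red cells. In Eed-MADM, where red cells are Eed+/+ and yellow cells heterozygous, it was 1300 and 1331 CPM in yellow and 1504 and 1642 CPM in red cells, and its 9 green libraries ranged from 942 to 1906 CPM. At E13.5 cKO-Eed-MADM had 1328 and 1385 CPM in yellow and 1702 and 1960 CPM in red cells, where the single yellow and red libraries of control-MADM had 3415 and 3471 CPM. With 1 or 2 libraries per group these values were not tested.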
